A study of Mus musculus with 8 samples.

Results

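The class IIa histone deacetylase genes are Hdac4, Hdac5, Hdac7 and Hdac9. They were taken by symbol from the table of read counts, where all 4 of the 22000 gene rows were found and all 4 passed the filter on low counts, among 13879 genes that did. Messenger RNA was sequenced from cortical tissue of 8 mice. By their labels, 4 were Mef2c heterozygous and 4 were Mef2c wild type, with 2 males and 2 females of each genotype and 1 library per mouse. No treatment is given in the labels, and no source used here gives the age and strain of the mice or the altered part of Mef2c. Total counts lay between 16092773 and 17841377 per library. Each member held between 467 and 3800 reads in every library, and levels are given as CPM, read counts scaled to a common library total.

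Class IIa histone deacetylases are transcriptional repressors with little deacetylase activity of their own. Their long N-terminal part binds MEF2 transcription factors, and they silence MEF2 target genes by bringing in corepressor complexes that contain HDAC3. Calcium-dependent and other kinases phosphorylate serines in this part, chaperone proteins of the 14-3-3 family then hold the deacetylase in the cytoplasm, and MEF2 is released from repression. HDAC4, HDAC5 and HDAC9 are known from brain, heart and skeletal muscle, and HDAC7 from endothelial cells and thymocytes. Hdac9 also makes a short form that binds MEF2 and lacks the deacetylase domain, and Hdac9 has been described as a MEF2 target itself. Counts per gene do not separate such forms, and measurements of RNA say nothing of phosphorylation or location of the proteins.

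The start regions of the members were searched for the MEF2 site, an AT-rich consensus of 10 positions, because the relation of these genes to MEF2 levels is the subject here. RefSeq windows of GRCm38.p6, each with 250 bases before and 50 bases after a transcript start, matched all 4 members by symbol. They comprised 1 window for Hdac4, 1 for Hdac5, 4 for Hdac7 and 2 for Hdac9. Both strands were read, and the site is its own reverse complement. Of the members, Hdac5 held a full match, whose first base lay 20 bases before the start, and among the MEF2 genes Mef2a held one that began 2 bases before its start. Of all 32851 such windows, 0.557% held a full match. The second listed start of Hdac9, inside the gene, had a stretch that matched 9 of 10 positions (A9G, counted from 1 at the 5′ end of the site), and 7.79% of all windows matched at 9 or 10 positions. The 250 bases before these starts on the minus strand, at chr11:102230173-102230422 for Hdac5 and chr12:34528890-34529139 for Hdac9, and 30 bases around the site of Mef2a at chr7:67372841-67372870, also on the minus strand, are shown 5′ to 3′ with the matching stretch in capitals.
Hdac5: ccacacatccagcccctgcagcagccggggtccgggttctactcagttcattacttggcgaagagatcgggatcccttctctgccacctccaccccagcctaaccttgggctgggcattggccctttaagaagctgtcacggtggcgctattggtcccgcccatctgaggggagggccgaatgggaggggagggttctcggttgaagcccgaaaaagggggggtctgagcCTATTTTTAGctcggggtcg
Hdac9: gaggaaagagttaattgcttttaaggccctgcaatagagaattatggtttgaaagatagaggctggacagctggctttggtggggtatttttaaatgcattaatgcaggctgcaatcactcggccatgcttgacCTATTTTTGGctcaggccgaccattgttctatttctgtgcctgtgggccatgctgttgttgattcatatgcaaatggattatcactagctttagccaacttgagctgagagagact
Mef2a: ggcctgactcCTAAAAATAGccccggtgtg
A match describes these letters and is not evidence of binding.

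Per the GENCODE M21 annotation of GRCm38, all 4 members are protein-coding genes on minus strands. Hdac4 (ENSMUSG00000026313.16) lies on chromosome 1 from 91928779 to 92195699, Hdac5 (ENSMUSG00000008855.17) on chromosome 11 from 102194432 to 102230166, Hdac7 (ENSMUSG00000022475.19) on chromosome 15 from 97792664 to 97844502 and Hdac9 (ENSMUSG00000004698.10) on chromosome 12 from 34047580 to 34917095. The 3′ end of Hdac7 overlaps that of Slc48a1, on the opposite strand, by 29 bases. Annotated exon bases were also shared by Hdac4 with Gm26720, on the opposite strand, and by Hdac5 with Mir8101, on the same strand. Among the tested MEF2 genes, Mef2a shared some with Lysmd4, on the opposite strand, and Mef2d with an antisense gene. Of these neighbours, Slc48a1 and Lysmd4 have rows of their own among the read counts. No source used here gives the annotation or strand setting of the counting, so reads from such shared bases cannot be assigned. The annotated transcripts of the 4 members and the 4 MEF2 genes shared 0 stretches of 50 bases with one another, which bears on reads being split between these paralogs.

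Mef2c, the gene named by the genotype labels, had 1233, 1336, 1391 and 1255 CPM in heterozygous replicates 1 to 4 and 1038, 939, 999 and 1003 CPM in wild type replicates 1 to 4. It was 1.31-fold higher in the libraries labelled heterozygous (adjusted p = 0.000154, edgeR quasi-likelihood test, Benjamini-Hochberg adjustment over all genes tested) and did not overlap between the labels, like 4.55% of all genes. This goes against the direction that loss of a transcript would give, and counts over the whole gene do not show which part was altered, so genotype refers to the labels throughout. With the same test and a threshold of 0.05, 0.267% of all genes tested were called by genotype. No p-value below is adjusted over the members alone.

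Per length, Hdac5 was by far the most abundant member in cortex. Divided by the total length of a gene's annotated exons, its level was 23.0 ± 1.05 CPM per kilobase in the libraries labelled heterozygous (SD, n = 4) and 23.1 ± 1.15 in those labelled wild type. Hdac7 had 4.32 ± 0.198 and 4.55 ± 0.417 CPM per kilobase, Hdac4 had 3.88 ± 0.167 and 4.13 ± 0.337, and Hdac9 had 3.13 ± 0.302 and 3.74 ± 0.275, in the same order of groups. The values of Hdac7 and Hdac4 overlapped over the 8 libraries, as did those of Hdac4 and Hdac9, so only the place of Hdac5 stood clear of its neighbours within the class. Divided by the longest annotated transcript instead, the means over 8 libraries were 37.4 CPM per kilobase for Hdac5, 7.82 for Hdac4, 6.35 for Hdac9 and 5.78 for Hdac7, so the order of the lower 3 depended on the gene model. Among the genes that passed the filter and had a length, the level per kilobase of exon stood at percentile 83.7 for Hdac5, 42.8 for Hdac7, 40.1 for Hdac4 and 36.5 for Hdac9. Genes removed by the filter were not ranked.

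**Figure D1:**
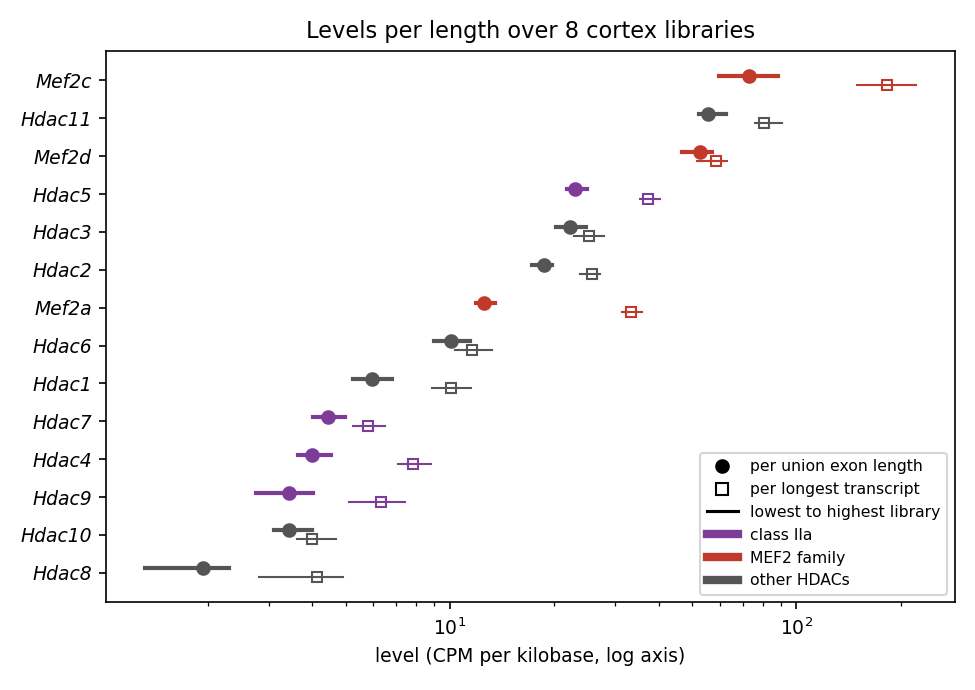
Levels per length of the class IIa members, the other histone deacetylases and the MEF2 genes in CPM per kilobase on a log axis, as the mean (symbol) and the lowest to highest of 8 libraries (line), for 2 measures of gene length. Hdac5 stands near Hdac3, at 23.0 CPM per kilobase of exon, and the other 3 members lie between 3.44 and 4.43.

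Hdac5 thus made up 67.0% ± 0.875 of the summed class IIa level per kilobase of exon in the libraries labelled heterozygous and 65.0% ± 1.73 in those labelled wild type (SD, n = 4 each). Its level per length overlapped that of Hdac3, the class I enzyme of the corepressor complex, at 22.3 CPM per kilobase of exon. Per longest transcript, Hdac5 lay clear above Hdac3, at 35.5 to 40.3 against 22.8 to 27.9 CPM per kilobase. Per kilobase of exon, Hdac11, the class IV enzyme, was higher at 55.6, and Hdac8, a class I enzyme, had the lowest level of the family at 1.94, while per longest transcript Hdac10 had 4.00 and Hdac8 4.14, with overlapping ranges. Among the 3 MEF2 genes tested, Mef2c had 73.1, Mef2d 52.9 and Mef2a 12.5 CPM per kilobase. Mef2b, the remaining family member, held between 0 and 6 reads per library and was not tested.

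Hdac9 was the member with the largest difference between the genotype labels, and it did not pass the test. Its level was 40.5, 51.3, 45.5 and 46.3 CPM in heterozygous replicates 1 to 4 and 56.7, 59.0, 49.6 and 54.1 CPM in wild type replicates 1 to 4. Heterozygous replicate 2, at 51.3 CPM, lay above wild type replicate 3, at 49.6 CPM, so the groups overlapped by this 1 pair, and the lowest library of all was heterozygous replicate 1. The means were 45.9 ± 4.43 and 54.9 ± 4.03 CPM (SD, n = 4), 16.3% lower in the libraries labelled heterozygous. The log2 fold change was -0.26 ± 0.07 (SE) with a 95% interval from -0.41 to -0.11, an unadjusted p of 0.00204 and an adjusted p of 0.190 (edgeR quasi-likelihood test). Of all genes tested, 7.24% had an unadjusted p under 0.05, and Hdac9 ranked at 149 by p. The two-sided exact permutation test over 4 against 4 libraries gave p = 0.0571, where the smallest possible p is 0.0286. The adjusted p lay between 0.0856 and 0.652 over the alternative analyses, highest without wild type replicate 2, and every one of them kept the sign.

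Both sexes and both runs of animal numbers showed the same order for Hdac9. The animal numbers in the titles fall into 2 separate runs, and the labels do not say what these runs stand for. The difference in mean log2 CPM was -0.18 in females, -0.33 in males, -0.34 in the first run and -0.17 in the second run, each with 2 libraries per genotype and no overlap of the genotypes. Of all genes tested, 2.91% were likewise lower without overlap in each of these 4 subsets, which share libraries. The genotype effect did not pass the test of a difference between the sexes (log2 difference -0.15, 95% interval -0.47 to 0.16) or between the runs (0.16, -0.13 to 0.46).

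**Figure D2:**
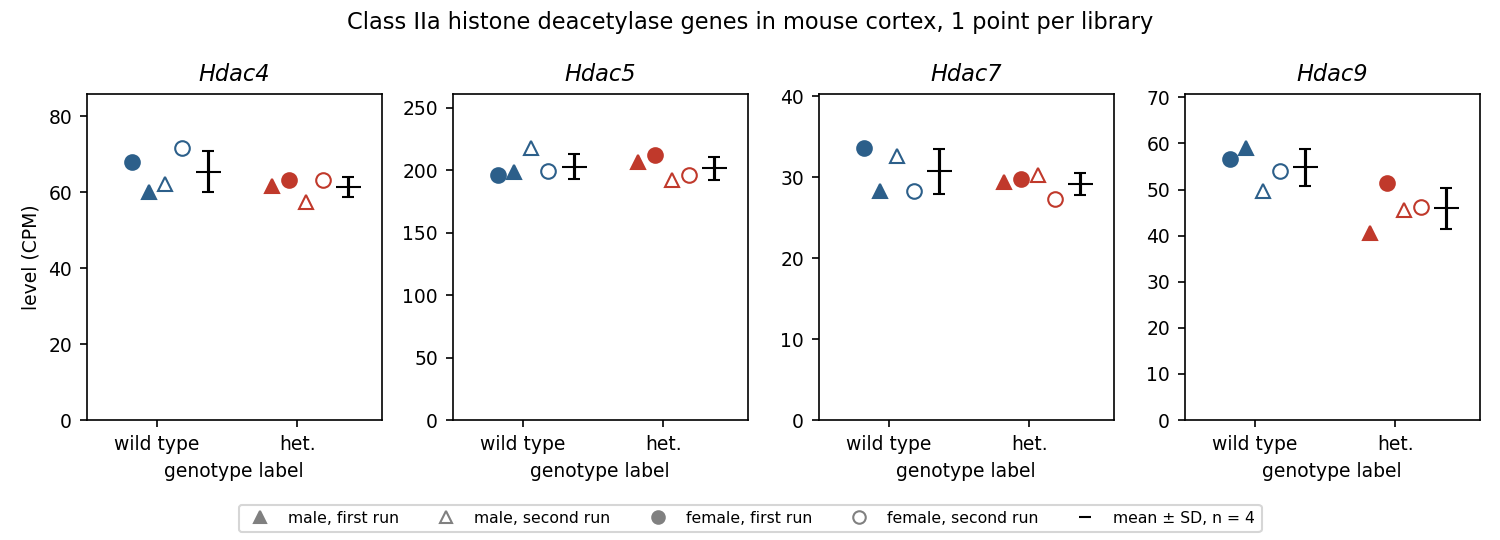
Level in CPM of each class IIa member in the 8 libraries by genotype label, with triangles for males, circles for females, filled symbols for the first and open symbols for the second run of animal numbers, and the mean ± SD (n = 4) in black. In Hdac9, 15 of the 16 pairs of a heterozygous and a wild type library have the lower value in the heterozygous one, against 9 in Hdac5.

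Summed markers of 3 cell types or regions did not overlap between the genotype labels, whereas Hdac9 did. The part of these markers in the Hdac9 value was not tested. Among single genes tested, 4.55% had no overlap, and no such share was computed for sums. The 11 tested microglia markers summed to between 411 and 464 CPM in the libraries labelled heterozygous and between 364 and 395 in those labelled wild type, with C1qb, C1qc and Ctss called higher. Of all genes tested, 0.267% were called. By log2 fold change, 9 of the 11 lay above 0. The 2 below were P2ry12 (46.3 against 48.4 CPM) and Itgam (5.59 against 6.29 CPM), neither of them called. The 8 hippocampus markers, of which 7 were tested, summed to between 288 and 320 against between 263 and 271 CPM, with Wfs1 and Fibcd1 called higher. Wfs1 alone had 150 CPM against 111. Of the 7 tested hippocampus markers, 5 lay above 0 by log2 fold change. The 2 below were Npnt, at 34.5 against 56.0 CPM (adjusted p 0.0692), and Neurod1, at 19.7 against 23.3 CPM (adjusted p 0.493). Neither of them passed the test. The 8 astrocyte markers summed to between 4295 and 4622 against between 4632 and 4719 CPM, with none called. Most of that sum was Slc1a2, at 2676 against 2821 CPM, and Gfap was at 111 against 86.6 CPM (adjusted p 0.570). By log2 fold change, 6 of the astrocyte markers lay below 0 and 2 above, with a median of -0.02. Excitatory neuron markers overlapped, at 9343 to 9943 against 9047 to 9871 CPM, as did inhibitory neuron markers, at 998 to 1095 against 943 to 1054 CPM, oligodendrocyte markers, at 6156 to 7804 against 6447 to 7297 CPM, and striatum markers, at 272 to 380 against 267 to 320 CPM. The striatum marker Drd1 was not analysed here. Of the markers in the table only Dsp, a hippocampus marker, was at 0 reads in any library (2 of 8), and the neuronal and glial markers listed for cortex were otherwise detected in all 8. In whole tissue, fewer cells of a type and less RNA per cell cannot be told apart.

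Hdac4, the class IIa gene that is needed for learning in the mouse forebrain, had 61.6, 63.1, 57.5 and 63.1 CPM in heterozygous replicates 1 to 4 and 67.8, 59.9, 62.1 and 71.6 CPM in wild type replicates 1 to 4. The highest values were those of wild type replicates 1 and 4, both female, and the genotypes overlapped. The log2 fold change was -0.09 ± 0.06 (SE), with a 95% interval from -0.22 to 0.04 and an adjusted p of 0.870. By sex, Hdac4 had 60.3 ± 2.09 CPM in males and 66.4 ± 4.14 CPM in females (SD, n = 4), without overlap. The male minus female log2 fold change was -0.14 (95% interval -0.27 to -0.01) with an unadjusted p of 0.0353, as for 2.92% of genes under 0.05, and an adjusted p of 1.00 (edgeR quasi-likelihood test). By sex, 1.97% of all genes had no overlap, and 0.0288% were called.

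Hdac5, which shuttles out of the nucleus of neurons on calcium signals, had 207, 212, 192 and 196 CPM in heterozygous replicates 1 to 4 and 196, 198, 218 and 199.6 CPM in wild type replicates 1 to 4. The groups overlapped almost completely. The log2 fold change was -0.0079 ± 0.05 (SE), and its 95% interval, in folds, ran from 0.922 to 1.07. Its SD was 4.56% of the mean within the libraries labelled heterozygous and 4.97% within those labelled wild type, where counting error alone would give 1.70%. In the first run of animal numbers its 2 heterozygous libraries lay above the wild type ones and in the second below them. Opposite directions without overlap in the 2 runs were found in 4.6% of all genes, and the test of that difference did not pass (log2 difference -0.19, 95% interval -0.40 to 0.01, adjusted p = 0.999). That test called 0.00721% of all genes.

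Hdac7, the member best known from endothelial cells, had 29.4, 29.8, 30.3 and 27.3 CPM in heterozygous replicates 1 to 4 and 33.6, 28.3, 32.7 and 28.3 CPM in wild type replicates 1 to 4. Wild type replicates 1 and 3 stood above the other 6 libraries. The log2 fold change was -0.08 ± 0.09 (SE), with a 95% interval from -0.25 to 0.10 and an adjusted p of 0.965. It was -0.01 without wild type replicate 1 and -0.12 without wild type replicate 2. The 12 endothelial markers, such as Cldn5 and Pecam1, summed to between 197 and 294 CPM in the libraries labelled heterozygous and between 209 and 281 CPM in those labelled wild type, with none called and a median log2 fold change of -0.12. For neither Hdac4, Hdac5 nor Hdac7 does the missed threshold show that the genotypes are alike, and the intervals bound the differences these libraries leave possible.

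The spread between mice of a label was above counting error for each member and label, only narrowly for Hdac7 in the libraries labelled heterozygous. It differed from member to member. For Hdac9 the SD was 9.65% of the mean in the libraries labelled heterozygous and 7.35% in those labelled wild type, where counting error alone would give 3.41%. Hdac4 varied by 4.32% and 8.15% (counting error 3.04%) and Hdac7 by 4.58% and 9.16% (counting error 4.42%), so the wild type mice showed the wider spread in these members and the heterozygous mice in Hdac9. With 4 libraries per label, these differences in spread were not tested.

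In all, 0 of the 4 members were called by genotype, with 1 at an unadjusted p under 0.05, and 0 were called by the DESeq2 Wald test or limma-voom. Their median log2 fold change was -0.08, beside -0.0011 over all genes tested. All 4 lay below 0, as did 7007 of the 13879 genes. The 3 MEF2 genes lay above 0: Mef2a and Mef2d, which form dimers with MEF2C and with each other, had log2 fold changes of 0.11 and 0.11, with adjusted p of 0.639 and 0.672, and did not pass. None of the members was called for sex, for the run of animal numbers (0.382% of all genes were) or for the interaction of genotype and sex. In that interaction, edgeR, DESeq2 and limma-voom each called 0 genes, and edgeR gave 366 genes (2.64%) with an unadjusted p under 0.05.

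**Figure D3:**
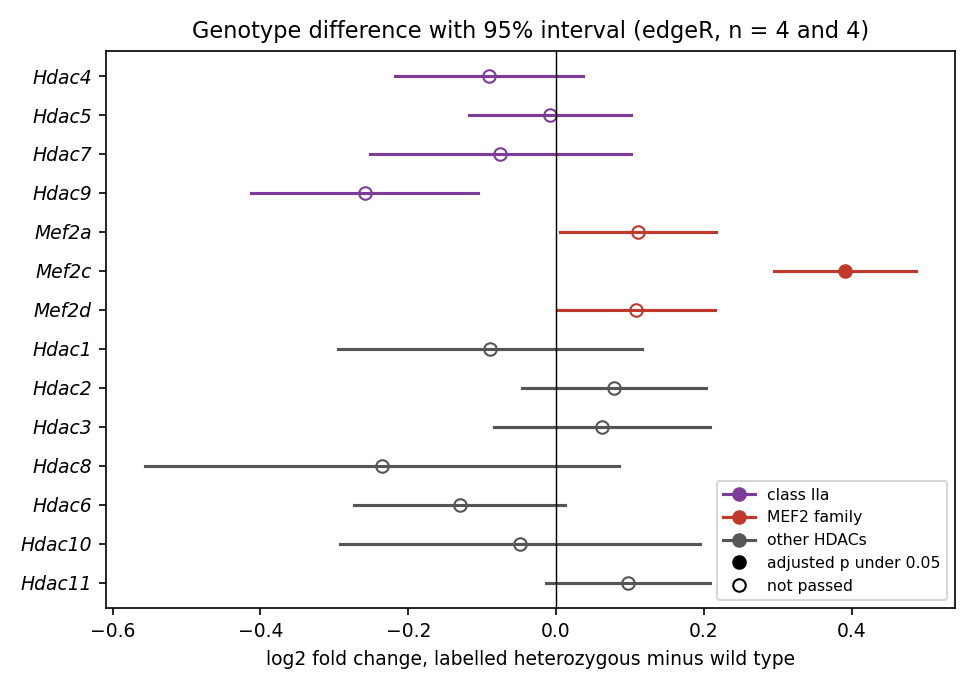
Log2 fold change between the genotype labels (point) with its 95% interval (line) for the class IIa members, the 3 tested MEF2 genes and the other 7 histone deacetylases, filled where the adjusted p was under 0.05. The interval of Hdac9 ends below 0, at -0.11, without passing the adjusted threshold, and Mef2c is the filled point.

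Mef2c was higher and no member was called, and the ratio of MEF2 to class IIa transcripts was higher in the libraries labelled heterozygous. The summed MEF2 level per kilobase of exon was 4.40 ± 0.245 times the summed class IIa level in the libraries labelled heterozygous and 3.55 ± 0.107 times in those labelled wild type (SD, n = 4). The ratio lay between 4.20 and 4.76 against between 3.42 and 3.68, so the groups did not overlap, and Mef2c, the called gene, is the largest term of the sum. The summed MEF2 level alone already did not overlap, at 145 to 157 against 118 to 130 CPM per kilobase, so the ratio repeats that difference. The summed class IIa level itself overlapped between the labels, at 34.3 ± 1.30 against 35.5 ± 1.01 CPM per kilobase. The ratio describes the libraries and was not tested.

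Within genotypes, no class IIa member followed another one or a MEF2 gene closely enough to pass a test. Log2 CPM values (pseudocount 0.5 CPM) were centred on each genotype's mean, since Mef2c separates the genotypes, and 18 pairs were correlated over the 8 libraries, with exact two-sided p over 576 rearrangements within genotypes and Benjamini-Hochberg adjustment over the 18 pairs. By Pearson's r, 0 of the 18 had an unadjusted p under 0.05, and by Spearman's rho 0 had an adjusted p under 0.05. Among the 6 pairs of members, r lay between -0.294 (Hdac5 and Hdac9) and 0.255 (Hdac5 and Hdac7). The highest value of all was that of Hdac7 and Mef2d, with r = 0.796 (exact permutation p = 0.0885, adjusted 0.875) and rho = 0.738 (p = 0.0938, adjusted 1), and r was 0.708 without the 2 libraries farthest from the median of Hdac7. Hdac7 and Mef2c followed with r = 0.618 (exact permutation p = 0.0972, adjusted 0.875), rho = 0.571 (p = 0.163, adjusted 1) and r = 0.643 without those 2 libraries. Hdac5 and Mef2d had r = 0.557 (exact permutation p = 0.205, adjusted 0.947), rho = 0.381 (p = 0.385, adjusted 1) and r = -0.300 without the 2 libraries farthest from the median of Hdac5, so this relation rests on heterozygous replicate 2 and wild type replicate 3. Hdac9 and Mef2c had r = 0.214 (exact permutation p = 0.670, adjusted 0.947), rho = 0.167 (p = 0.722, adjusted 1) and r = -0.306 without the 2 farthest libraries. Each genotype had 4 libraries and each run within a genotype 2, too few for a correlation within them; centred on genotype and run together, r was 0.928 for Hdac7 and Mef2d, 0.702 for Hdac7 and Mef2c, 0.481 for Hdac5 and Mef2d and 0.322 for Hdac9 and Mef2c. That centring leaves, for each genotype and run, only the difference between its 2 libraries, so r rests on fewer values than the 8 libraries. It also leaves 16 rearrangements, so no r could pass the adjusted test there. Without centring, r was 0.333 for Hdac7 and Mef2d. Heterozygous replicate 2 and wild type replicate 3 had the lowest RNA integrity number, 8.6, beside 8.7 to 9 in the other libraries. Wild type replicates 1 and 3, at 8.7 and 8.6, were the highest of their label in Hdac7 and Mef2d. Heterozygous replicate 4, at 9, was the lowest of its label in both, while Hdac7 was highest in heterozygous replicate 3, at 8.9. The part of RNA integrity in these correlations was not tested.

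**Figure D4:**
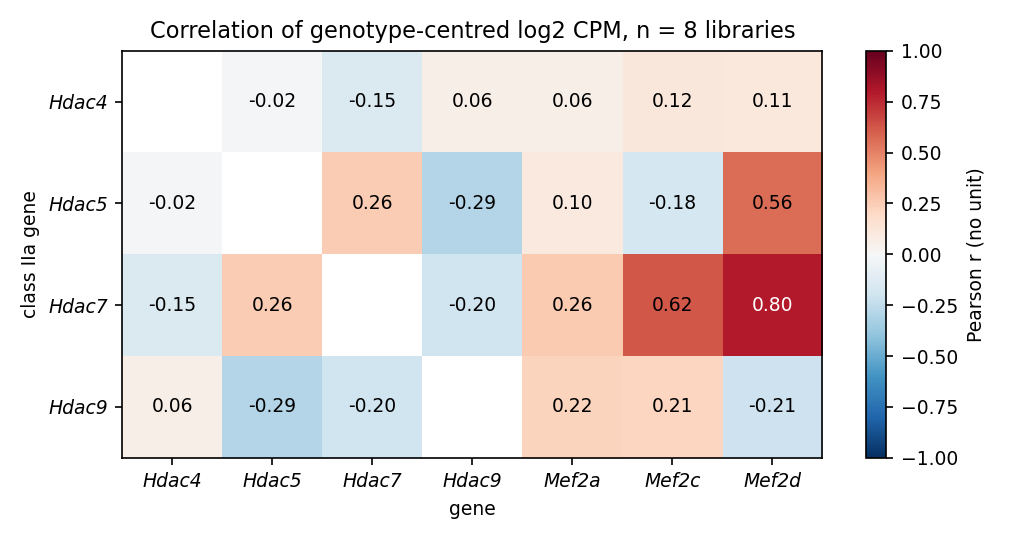
Pearson correlation (colour and printed value) of each class IIa member, in rows, with the other members and the 3 tested MEF2 genes, in columns, from log2 CPM centred on the genotype means over 8 libraries. Hdac7 has the highest values, with Mef2d at 0.80 and Mef2c at 0.62, and no pair passed the adjusted test.

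Among the 10485 genes whose log2 CPM averaged 3 or more, those most like each member over the 8 libraries, by Pearson's r of uncentred log2 CPM, were a different set of 3 for each. For Hdac4 they were Frzb, which codes for a secreted Wnt antagonist (r = 0.989, rho = 0.905), the heat shock factor gene Hsf4 (r = 0.965, rho = 0.952) and the phosphatase gene Phlpp1 (r = 0.963, rho = 0.905). For Hdac5 they were the salt-inducible kinase gene Sik2 (r = 0.946, rho = 0.952), Fgd1 (r = 0.919, rho = 0.929) and Stt3b (r = 0.909, rho = 0.714). For Hdac7 they were Extl2 (r = 0.959, rho = 0.905), a row named RP23-349D13.3 (r = 0.958, rho = 0.976) and Pphln1 (r = 0.952, rho = 0.929). For Hdac9 they were the diacylglycerol kinase gene Dgkd (r = 0.966, rho = 0.976), Zc3h14, which codes for a poly(A)-binding protein (r = 0.936, rho = 0.976), and the sodium pump subunit gene Atp1b3 (r = 0.927, rho = 0.929). Without the 2 libraries farthest from the member's median, r stayed between 0.644 (Stt3b) and 0.969 (Frzb). These values are the highest of all 10485 over 8 points and carry no p, and none of the 12 genes was called by genotype.

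The genes that act on or with the class IIa deacetylases were described as lists, by their counts. Of 21 kinases that phosphorylate these deacetylases or activate such kinases, 0 were called, 12 lay above 0 and the median log2 fold change was 0.02. Those with the smallest p were Camkk1, which activates calcium/calmodulin-dependent kinases (156 ± 9.43 against 139 ± 10.3 CPM, log2 fold change 0.17, adjusted p 0.378), and Camk1 (73.3 ± 0.910 against 79.4 ± 5.35 CPM, -0.11, adjusted p 0.744), with SD over 4 libraries of each label. Sik2, the kinase gene most like Hdac5 in its pattern, had a log2 fold change of -0.02. Of 7 genes of the 14-3-3 family, 0 were called, with a median of 0.04, and the lowest p were those of Ywhaz (0.09, adjusted p 0.801) and Ywhaq (0.06, adjusted p 0.945). Of 10 subunits of phosphatases that can reverse the phosphorylation or act on MEF2, 0 were called, with a median of 0.02, and Ppp3r1 (0.08, adjusted p 0.844) and Ppp2cb (-0.09, adjusted p 0.864) had the lowest p.

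On the repression side, 0 of 12 corepressor genes were called, Hdac3 and Ncor1 among them, with a median of 0.02 and the lowest p for Tbl1x (0.10, adjusted p 0.833) and Gps2 (-0.14, adjusted p 0.873). The other 7 histone deacetylases had 0 called and a median of -0.05, with Hdac6, the cytoplasmic tubulin deacetylase, at -0.13 (adjusted p 0.745) and Hdac11 at 0.10 (adjusted p 0.766). Of 12 MEF2 coactivators and regulators, 0 were called, and the lowest p were those of Cdk5 (0.05, adjusted p 0.965) and Cabin1 (-0.05, adjusted p 0.965). Among 18 described MEF2 targets, 0 were called, 9 lay above and 9 below 0, and the median was 0.0062. Hdac9, listed there too, had the lowest p, followed by the early growth response gene Egr3 (246 ± 26.4 against 304 ± 33.7 CPM, log2 fold change -0.30, adjusted p 0.469). All these p-values come from the same edgeR fit, adjusted over all genes tested, of which 0.267% were called.

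**Figure D5:**
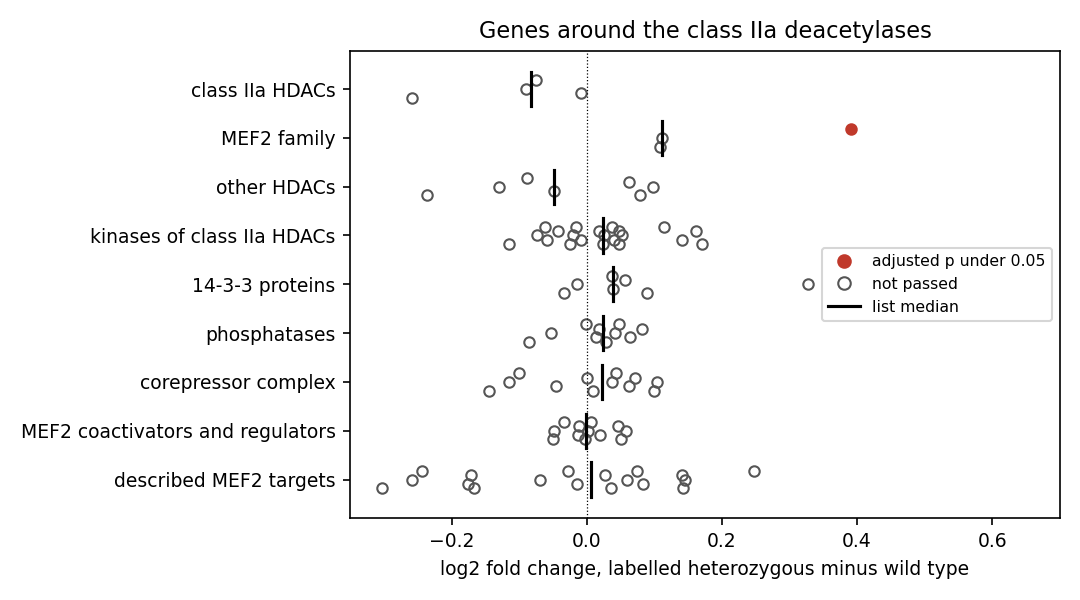
Log2 fold change between the genotype labels for every tested gene of the 9 lists around the class IIa deacetylases (point, filled red where called) with the list median (bar). Mef2c is the single called gene, and the list medians lie between -0.08 (class IIa) and 0.11 (MEF2 family).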

How the data were processed

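Read counts per gene symbol were deposited by the authors as raw whole numbers for 8 cortex libraries, whose titles carry separate animal numbers. Per the labels' protocols, polyadenylated RNA was enriched from column-purified total RNA; per the submitters' processing notes, STAR 2.5.2b, HTSeq and mm10 were used, and no source used here gives the annotation or strand setting. Genes were kept with filterByExpr at a minimum count of 10 (99.95% of reads), and libraries were scaled by TMM. Contrasts were fitted with sex and genotype as terms by the quasi-likelihood F-test of edgeR 4.0.16 in R 4.3.3 (robust), with Benjamini-Hochberg adjustment over 13879 genes. DESeq2 1.42.0, limma-voom (limma 3.58.1), other scalings, filters and covariates, and leaving out each library were alternatives. Between libraries of a genotype, chi-square per degree of freedom was at least 4.04, so none was a duplicate. The members and lists were chosen with earlier results of these data known. The rule for named genes took the members, the MEF2 genes, in each pathway list the called genes or else the 2 with the lowest p, and the 3 genes most like each member; other genes are named as examples from the lists, chosen after their values were seen.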

Additional observations from a re-analysis of the deposited data

Results flagged for a closer look

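Hdac5 had opposite differences in the 2 runs of animal numbers, with every heterozygous library above the wild type ones in the first run and below them in the second, a pattern shared by 4.6% of all genes tested. The difference in mean log2 CPM was 0.0871 in the first run and -0.103 in the second, with 2 libraries per genotype in each. The interaction of genotype and run, a fit chosen after the data had been seen, gave a difference of -0.19 ± 0.10 (SE; 95% interval -0.40 to 0.01) and did not pass (edgeR, unadjusted p = 0.0668, adjusted p = 0.999). That test called 0.00721% of all genes. The labels do not say what the runs stand for.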

How the results depend on the processing

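The labels give no pairs, because the animals of the 2 genotypes carry no shared replicate numbers in them. The 4 cells of sex and run hold 1 animal of each genotype, and a fit with these cells as terms, chosen after the data had been seen, called 124 genes by genotype. In it Hdac9 had a log2 fold change of -0.26 and an adjusted p of 0.0856. None of the 4 members crossed the adjusted threshold under any alternative. The 37 genes called by genotype became 82 without a filter, 80 with the DESeq2 Wald test and 72 with sex and run as terms. They became 72 at an adjusted p under 0.1 and 14 at one under 0.01. Leaving out 1 library gave 19 (without wild type replicate 2) to 80 (without heterozygous replicate 1). A fit with sex and the RNA integrity number, chosen after the data had been seen, called 25. In that fit the log2 fold change was -0.04 for Hdac7 and -0.25 for Hdac9 (edgeR, adjusted p 0.976 and 0.256). The 53 genes called by run became 95 without a filter and 11 to 77 with 1 library left out, and the 4 called by sex 2 to 6. The log2 fold change of Hdac5 by genotype was 0.0148 with the RNA integrity number as a term (chosen after the data had been seen), 0.0871 and -0.103 in the first and second run and -0.0409 to 0.0324 with 1 library left out; the cause was not tested. Per longest transcript, mean levels were 7.82 (Hdac4), 37.4 (Hdac5), 5.78 (Hdac7), 6.35 (Hdac9), 33.2 (Mef2a), 183 (Mef2c) and 58.6 (Mef2d) CPM per kilobase, since that length is shorter than the summed exons.

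Leaving out 1 library turned the sign of small values. By sex, the ranges of the log2 fold change were -0.0188 to 0.0525 for Hdac5, -0.0186 to 0.0837 for Hdac7, -0.0324 to 0.0234 for Mef2a and -0.0600 to 0.0308 for Mef2d. By run, they were -0.0229 to 0.0483 for Hdac4, -0.0642 to 0.0252 for Hdac5, -0.102 to 0.0341 for Hdac7, -0.0289 to 0.0394 for Mef2a, -0.0167 to 0.0731 for Mef2c and -0.0242 to 0.0588 for Mef2d. For r they were -0.324 to 0.355 (Hdac4 and Hdac5), -0.663 to 0.320 (Hdac4 and Hdac7), -0.164 to 0.427 (Hdac4 and Hdac9), -0.0668 to 0.627 (Hdac5 and Hdac7), -0.898 to 0.157 (Hdac5 and Hdac9) and -0.403 to 0.029 (Hdac7 and Hdac9). With Mef2a they were -0.280 to 0.389 (Hdac4), -0.198 to 0.438 (Hdac5), -0.173 to 0.558 (Hdac7) and -0.137 to 0.455 (Hdac9). With Mef2c they were -0.323 to 0.589 (Hdac4), -0.364 to 0.199 (Hdac5) and -0.206 to 0.574 (Hdac9), and with Mef2d -0.652 to 0.495 (Hdac4) and -0.596 to 0.244 (Hdac9).

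Without centring, r changed sign to 0.0136 for Hdac4 and Hdac5, 0.0563 for Hdac4 and Hdac7, 0.161 for Hdac7 and Hdac9, -0.348 for Hdac4 and Mef2a, -0.137 for Hdac7 and Mef2a, -0.513 for Hdac9 and Mef2a and -0.239 for Hdac4 and Mef2d. Centred on genotype and run, it changed to -0.0841 for Hdac4 and Mef2a, -0.381 for Hdac5 and Mef2a, -0.0582 for Hdac4 and Mef2d and 0.0306 for Hdac9 and Mef2d. Without centring, no pair of the 14 computed passed the adjusted test; with centring on genotype and run, 16 rearrangements allow none to pass. The r of Hdac7 and Mef2d was 0.333 without centring and 0.928 centred on genotype and run, the latter from only the difference within each genotype and run.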
